A study of Mus musculus with 7 samples.

Results

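The Hedgehog genes described here are 10 of the 24978 genes listed for cells of mouse brain sorted for HopX, chosen by symbol as the receptors, co-receptors, inhibitors and Gli transcription factors of the pathway. They are Ptch1, Hhip, Smo, Sufu, Gli1, Gli2, Gli3, Cdon, Boc and Gas1, and each was listed once. RNA-seq was run on HopX-positive cells isolated by fluorescence-activated sorting from C57BL/6 mice at embryonic day 15 (E15, n = 2, replicates 1 and 2), postnatal day 3 (P3, n = 2, replicates 1 and 3) and in the adult (n = 3). The labels give no other genotype, treatment or adult age, and they describe the cells as neural progenitors. HopX is an atypical homeodomain protein of radial glia, quiescent neural stem cells and astrocytes. Values are TPM, which count transcripts per length on a fixed total, so that levels can be set side by side between genes. Brain region, sex and the number of animals per library are not stated, and p-values therefore measure only the spread between these libraries, which may be technical.

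In Hedgehog signalling, the secreted ligand Sonic hedgehog binds Patched1 (Ptch1) with the help of the co-receptors Cdon, Boc and Gas1. Free Patched1 holds the membrane protein Smoothened (Smo) off the primary cilium. When ligand binds, Smoothened is released and the Gli zinc finger factors, which Sufu restrains in the cytoplasm, act on their targets. Gli3 serves mainly as a processed repressor, Gli2 mainly as the activator, and Gli1 is an activator that is itself a target gene. Ptch1 and Hhip, a membrane protein that captures ligand, are also targets and form negative feedback loops. In the brain the pathway patterns the ventral forebrain, drives expansion of cerebellar granule cell precursors, and acts in adult neural stem cells and in subsets of mature astrocytes.

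The libraries summed to between 998450 and 999193 TPM, and the number of reads behind them is unknown. Between 13483 and 14445 genes reached 1 TPM in a library, and rows listed at 0 made up 19% to 21.21% of the E15 and P3 libraries and 26.49% to 31.43% of the adult libraries. Hopx itself was at 60.5 to 62.9 TPM at E15, 112 to 171 TPM at P3 and 220 to 249 TPM in the adult. Some libraries differed in markers of other cell types. The summed level of 13 neuron markers was 245 TPM in P3 replicate 1 and 832 TPM in P3 replicate 3. The summed level of 8 mature oligodendrocyte markers was 634 and 434 TPM in Adult replicates 1 and 3 and 80.0 TPM in Adult replicate 2. In sorted bulk samples, fewer cells of a type and less RNA per cell cannot be told apart.

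Ptch1 (ENSMUSG00000021466), the Hedgehog receptor, rose at both steps. It was at 2.28 and 2.14 TPM (E15), 16.0 and 10.4 TPM (P3) and 41.9, 33.2 and 32.8 TPM (Adult). The 3 stages did not overlap, and the adult mean of 36.0 ± 5.15 TPM (SD, n = 3) was 16.3 times the E15 mean of 2.21 ± 0.10 TPM (SD, n = 2). On the log2(TPM + 1) scale, which understates changes of low values, Ptch1 was higher by 2.11 in P3 than in E15 cells (SE 0.32, limma, Benjamini-Hochberg adjusted p = 0.00658). It was higher by 1.40 in adult than in P3 cells (SE 0.29, adjusted p = 0.0111) and by 3.52 in adult than in E15 cells (SE 0.29, adjusted p = 6.83e-05). Among the 15931 genes tested, 2.03% had a larger increase in adult over E15 cells. The call at P3 was lost without E15 replicate 2 and without P3 replicate 1 (adjusted p = 0.0566 and 0.0795), the call in adult over P3 cells was lost without P3 replicate 3 (0.104) and without Adult replicates 1 and 3 together (0.0766), and the difference at P3 was 1.32 with a pseudocount of 5. The call in adult over E15 cells held in all 20 alternatives.

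Hhip (ENSMUSG00000064325), the ligand-capturing feedback antagonist, was barely listed at E15 and present in the adult. It was at 0.0251 and 0.0664 TPM (E15), 1.43 and 0.712 TPM (P3) and 9.77, 2.14 and 1.64 TPM (Adult). Every later library lay above every earlier one, and Adult replicate 1 stood well above the other adult libraries. Hhip rose in adult over E15 cells (log2 2.10, SE 0.60, limma, Benjamini-Hochberg adjusted p = 0.0243), while neither step alone passed (0.97 in P3 over E15 cells, adjusted p = 0.419, and 1.13 in adult over P3 cells, adjusted p = 0.22). The adult call was lost without E15 replicate 1 or 2 (0.112 and 0.106), with no filter on low values (0.0761) and with a pseudocount of 5 (log2 0.82, 0.068), and the difference was 4.55 with a pseudocount of 0.1. By the F test over the 3 stages, Hhip did not pass (limma, Benjamini-Hochberg adjusted p = 0.0573). Among the genes tested, 6.26% had a larger increase than Hhip in adult over E15 cells. With no E15 library at 1 TPM, Hhip could enter the tests only by being higher later. Without Adult replicate 1, the log2 difference in adult over P3 cells was 0.50. Mature oligodendrocyte markers were high in Adult replicates 1 and 3, whereas Hhip was high in replicate 1 alone. Their part in the Hhip result was not tested.

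Because Ptch1 and Hhip were higher together in later libraries while Sufu and Cdon were lower, the promoter windows of these 4 genes are shown, each running from 250 bases before to 50 bases after a RefSeq start in GRCm38.p6. Capitals mark the letters GGGCGG of the GC box and CCAAT of the box of that name, on either strand.
Ptch1, chr13:63565686-63565985, minus strand: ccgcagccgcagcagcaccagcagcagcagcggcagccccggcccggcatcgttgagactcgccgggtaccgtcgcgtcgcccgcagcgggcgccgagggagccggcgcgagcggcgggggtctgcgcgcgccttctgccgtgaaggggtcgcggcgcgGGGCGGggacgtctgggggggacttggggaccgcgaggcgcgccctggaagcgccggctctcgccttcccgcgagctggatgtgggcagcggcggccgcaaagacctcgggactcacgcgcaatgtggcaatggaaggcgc
Hhip, chr8:80057959-80058258, minus strand: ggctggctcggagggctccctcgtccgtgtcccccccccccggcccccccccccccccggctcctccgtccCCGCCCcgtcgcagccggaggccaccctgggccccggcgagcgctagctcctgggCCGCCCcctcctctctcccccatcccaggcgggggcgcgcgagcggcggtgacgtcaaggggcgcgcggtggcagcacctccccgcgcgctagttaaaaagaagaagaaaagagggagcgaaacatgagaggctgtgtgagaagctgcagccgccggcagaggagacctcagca
Sufu, chr19:46396646-46396945, plus strand: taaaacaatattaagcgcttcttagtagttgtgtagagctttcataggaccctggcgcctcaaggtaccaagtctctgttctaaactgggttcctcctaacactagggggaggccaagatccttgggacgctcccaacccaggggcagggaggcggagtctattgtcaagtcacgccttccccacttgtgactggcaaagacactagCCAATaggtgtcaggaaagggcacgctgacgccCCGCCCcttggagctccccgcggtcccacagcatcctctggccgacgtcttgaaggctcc
Cdon, chr9:35451826-35452125, plus strand: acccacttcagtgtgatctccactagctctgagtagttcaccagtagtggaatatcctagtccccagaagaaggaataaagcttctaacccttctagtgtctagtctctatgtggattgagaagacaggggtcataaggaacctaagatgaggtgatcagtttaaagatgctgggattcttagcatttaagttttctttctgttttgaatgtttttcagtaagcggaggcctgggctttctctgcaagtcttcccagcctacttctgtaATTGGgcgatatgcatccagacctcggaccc
The Cdon window belongs to a start inside the gene, and GENCODE gives another principal transcript that begins further upstream. The windows differed in base composition. Ptch1 and Hhip held 47 and 30 CG dinucleotides at 76.3% and 73.7% G and C, Sufu held 12 at 56.3% and Cdon 3 at 44.7%, against a median of 7 and 52.7% over 32851 RefSeq promoter windows. Members with no called change also had windows above these medians, with 39 CG dinucleotides at 71.0% for Gli3, 28 at 67.3% for Gli2, 17 at 67.7% for Smo and 17 at 62.3% for Gas1. However, the GENCODE principal starts of Gli3, Smo and Gas1 lie 257, 197 and 594 bases downstream of the RefSeq start used, outside these windows. The Gas1 window holds no GENCODE start. The full Gli consensus GACCACCCA was in none of the 8 member windows held by the table, and it was in 0.253% of all windows. Its 7-base core ACCACCC, which lies within that consensus, was in 4.61% of all windows and, among the members, in the Gli2 window only. No match says only that these letters are not in the window. GC and CCAAT boxes were in 35.7% and 37.4% of all windows.

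Smo (ENSMUSG00000001761), the signal transducer that Patched1 inhibits, showed no detectable change. It was at 12.8 and 17.1 TPM (E15), 13.9 and 12.1 TPM (P3) and 18.0, 14.4 and 19.9 TPM (Adult). The E15 libraries overlapped those of both later stages, and the adult libraries lay above those of P3. The log2 difference was 0.21 in adult over E15 cells (95% interval -0.41 to 0.83, limma, Benjamini-Hochberg adjusted p = 0.57), and its sign turned without Adult replicates 1 and 3 together (-0.03). With Ptch1 rising against Smo, the within-library log2 ratio of Ptch1 over Smo (TPM + 1) was -2.07 and -2.53 (E15), 0.18 and -0.20 (P3) and 1.18, 1.15 and 0.69 (Adult). The receptor transcript was thus below that of Smo in both E15 libraries and above it in the 3 adult libraries.

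Sufu (ENSMUSG00000025231), the cytoplasmic inhibitor of Gli proteins, fell in adult relative to E15 cells. It was at 11.8 and 10.01 TPM (E15), 5.89 and 8.36 TPM (P3) and 4.35, 2.59 and 4.88 TPM (Adult). The 3 stages did not overlap. The log2 difference was -1.30 in adult against E15 cells (SE 0.35, limma, Benjamini-Hochberg adjusted p = 0.0197), and the steps did not pass (-0.56 in P3 against E15 cells, adjusted p = 0.421, and -0.73 in adult against P3 cells, adjusted p = 0.179). The adult call was lost without E15 replicate 1 or 2 (0.128 and 0.0829) and with median-of-ratios scaling (log2 -1.02, 0.054), which moved the median of all genes in this comparison to -0.04, against -0.30 in TPM as deposited. With a pseudocount of 5 the difference was -0.84. Among the genes tested, 16.9% had a larger decrease than Sufu in adult against E15 cells.

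**Figure D1:**
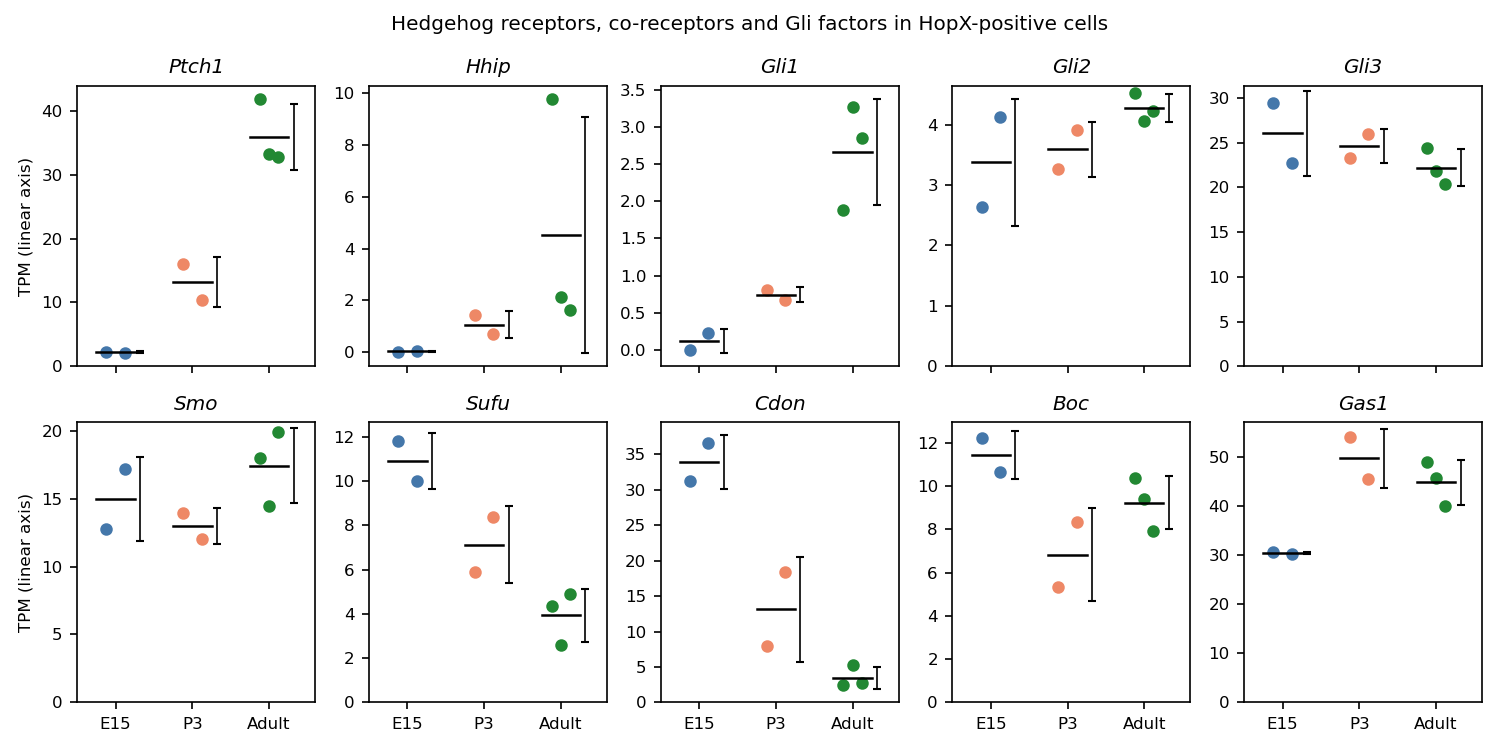
TPM of the 10 Hedgehog genes on linear axes, with a point for each library, a line at the stage mean and a bar of 1 SD to its right (E15 n = 2, P3 n = 2, Adult n = 3). Ptch1 climbs to between 32.8 and 41.9 TPM in the adult while Cdon drops to between 2.46 and 5.24 TPM, and Gli3 stays between 20.4 and 29.4 TPM throughout.

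The Gli factors differed in level and in course. Gli3 (ENSMUSG00000021318), the main repressor, was the most abundant of them in every library, at 29.4 and 22.7 TPM (E15), 23.3 and 26.0 TPM (P3) and 24.4, 21.9 and 20.4 TPM (Adult). Its libraries overlapped between all stages, and the 95% intervals of all 3 log2 differences lay between -0.74 and 0.51 (limma, Benjamini-Hochberg adjusted p = 0.896, 0.703 and 0.489 in P3 against E15, adult against P3 and adult against E15 cells). All 3 intervals lay within -1 to 1 for 7.83% of the genes tested, and Gli3 was the only member of which this was true. The small Gli3 differences turned sign with median-of-ratios scaling (0.10 in P3 against E15 cells and 0.09 in adult against E15 cells).

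Gli2 (ENSMUSG00000048402), the main activator, was at 2.64 and 4.12 TPM (E15), 3.27 and 3.91 TPM (P3) and 4.53, 4.07 and 4.23 TPM (Adult). The stages overlapped between E15 and both later stages, and the log2 difference in adult over E15 cells was 0.29 (95% interval -0.48 to 1.06, limma, Benjamini-Hochberg adjusted p = 0.523). Gli2 was below Gli3 in all 7 libraries.

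Gli1 (ENSMUSG00000025407), the activator that is itself a Hedgehog target, was the least abundant Gli gene and rose in the adult. It was listed at 0 and 0.234 TPM (E15), 0.812 and 0.672 TPM (P3) and 1.88, 3.27 and 2.85 TPM (Adult). The 3 stages did not overlap, although the adult libraries had the larger share of genes listed at 0. The log2 difference in adult over E15 cells was 1.70 (SE 0.35, limma, Benjamini-Hochberg adjusted p = 0.00585), and 8.70% of the genes tested had a larger increase. Neither step passed, with 0.65 in P3 over E15 cells (adjusted p = 0.351) and 1.06 in adult over P3 cells (adjusted p = 0.0649). The second of these passed with quantile normalization (0.0355), with limma without the trend (0.0344) and without Adult replicate 1 (0.0482). The adult call against E15 was lost without E15 replicate 1 (0.0615), and its size was 3.89 and 0.58 with pseudocounts of 0.1 and 5. In the GENCODE annotation of GRCm38, 62 exonic bases of Gli1 overlap Arhgap9 and 265 overlap the uncharacterised Gm47200, both on the opposite strand, and the sources used here do not say whether counting used strand. Arhgap9 was at 0.0566 and 0.821 TPM (E15), 0.362 and 0.373 TPM (P3) and 0.158, 0.108 and 0.372 TPM (Adult), and was highest in E15 replicate 2.

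As a share of the summed Gli TPM, Gli3 made up 91.8% and 83.9% (E15), 85.1% and 85.0% (P3) and 79.2%, 74.9% and 74.2% (Adult). Gli1 made up 0% and 0.864% (E15), 2.97% and 2.20% (P3) and 6.09%, 11.2% and 10.4% (Adult). The sum of the 3 genes was 27.1 to 32.1 TPM in all 7 libraries, so the larger Gli1 share stood on a similar total.

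The co-receptors went separate ways. Cdon (ENSMUSG00000038119), an immunoglobulin-domain co-receptor, was at 31.2 and 36.6 TPM (E15), 7.89 and 18.4 TPM (P3) and 2.46, 5.24 and 2.76 TPM (Adult). The 3 stages did not overlap, but the P3 libraries lay far apart. The adult mean was 3.49 ± 1.53 TPM (SD, n = 3), 9.72 times lower than the E15 mean of 33.9 ± 3.85 TPM (SD, n = 2). Cdon fell in adult against E15 cells by 3.01 on the log2 scale (SE 0.42, limma, Benjamini-Hochberg adjusted p = 0.000898), a call that held in all 20 alternatives. Among the genes tested, 1.75% had a larger decrease in this comparison. It also fell in adult against P3 cells (log2 -1.60, SE 0.42, adjusted p = 0.0283). In P3 against E15 cells the log2 difference of -1.41 did not pass (SE 0.46, adjusted p = 0.115). The call in adult against P3 cells did not hold when E15 replicate 1 or 2, P3 replicate 3, Adult replicate 1 or Adult replicate 3 was left out (adjusted p = 0.0531, 0.0538, 0.236, 0.0613 and 0.0624), without Adult replicates 1 and 3 together (0.181), with no filter (0.0805) and in a fit of the 2 stages alone (0.0579). The difference was -1.04 without P3 replicate 3, -1.07 without Adult replicates 1 and 3 together and -1.05 with a pseudocount of 5, and that in P3 against E15 cells was -0.85 without P3 replicate 1.

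Boc (ENSMUSG00000022687), the close relative of Cdon, was at 12.2 and 10.7 TPM (E15), 5.32 and 8.34 TPM (P3) and 10.4, 9.39 and 7.93 TPM (Adult). Both P3 libraries lay below both E15 libraries, and the adult libraries overlapped those of P3 and lay below those of E15. No comparison passed (log2 -0.69 in P3 against E15 cells, 95% interval -1.47 to 0.08, limma, Benjamini-Hochberg adjusted p = 0.257).

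Gas1 (ENSMUSG00000052957), a membrane-anchored co-receptor first described as a growth arrest gene, was the most abundant member on average. It was at 30.6 and 30.2 TPM (E15), 53.9 and 45.4 TPM (P3) and 48.9, 45.6 and 39.9 TPM (Adult). Both later stages lay above E15 and overlapped each other. The log2 difference was 0.69 in P3 over E15 cells (SE 0.22, limma, Benjamini-Hochberg adjusted p = 0.104) and 0.54 in adult over E15 cells (SE 0.20, adjusted p = 0.0585), neither past the threshold. Under median-of-ratios scaling Gas1 passed in both (log2 0.86, adjusted p = 0.044, and 0.84, adjusted p = 0.00925). The adult comparison also passed with quantile normalization (log2 0.71, 0.0181), with the 10 most abundant genes left out (0.69, 0.0243), with no filter (0.0411) and without Adult replicate 3 (0.0494). In GRCm38, 589 exonic bases of Gas1 overlap the opposite-strand gene Gm48488, and likewise 188 of Gli3 overlap Gm6556 and 175 of Hhip overlap Gm27820.

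Set together, the co-receptor transcripts differed in make-up between the stages. Of their summed TPM, Cdon made up 42.1% and 47.3% (E15), 11.8% and 25.5% (P3) and 3.98%, 8.70% and 5.46% (Adult). Gas1 made up 41.3% and 39.0% (E15), 80.3% and 62.9% (P3) and 79.2%, 75.7% and 78.8% (Adult). The summed level was 74.0 and 77.5 TPM (E15), 67.2 and 72.1 TPM (P3) and 61.7, 60.3 and 50.5 TPM (Adult).

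**Figure D2:**
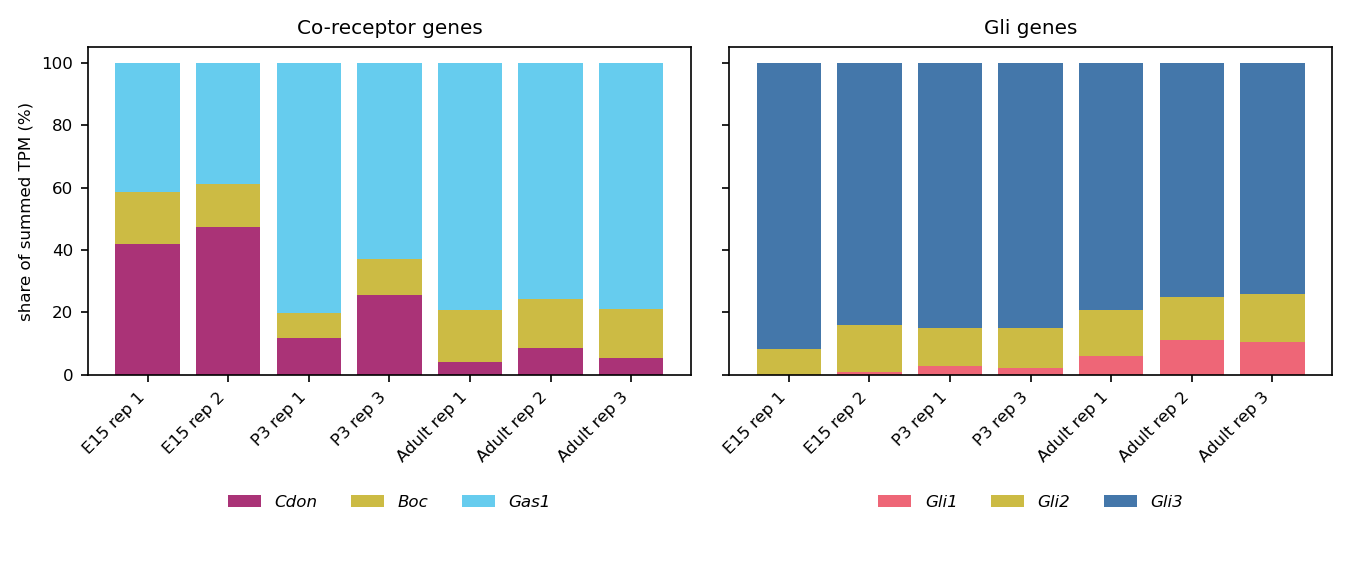
Share of each gene in the summed TPM of the co-receptor genes (left) and of the Gli genes (right), in percent, with 1 bar per library from E15 to the adult. The Cdon share is 42.1% and 47.3% at E15 and at most 8.70% in the adult, while Gli3 is the largest part of the Gli sum in every library.

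Counted over the comparisons, 1 of the 10 members was called higher and none lower in P3 against E15 cells, where 5.56% of all tested genes were called higher and 1.08% lower (limma, Benjamini-Hochberg). At an unadjusted p under 0.05, Ptch1 and Gas1 were higher in that comparison and Cdon was lower, beside 12.3% and 11.3% of all genes. Called either way were 1 of 10 members and 6.63% of all genes. In adult against P3 cells, 1 member rose (Ptch1) and 1 fell (Cdon), beside 8.39% and 13.8% of all genes, and 22.2% of all genes were called either way. In adult against E15 cells, 3 rose (Ptch1, Hhip and Gli1) and 2 fell (Cdon and Sufu), beside 15.4% and 24.7% of all genes. Either way, 5 of 10 members were called in adult against E15 cells and 40.1% of all genes, so the members were not called at a share far from that of other genes. The balance of calls over all genes depended on scaling. For adult against E15 cells it was 3080 higher and 2705 lower with median-of-ratios scaling, beside 2457 higher and 3930 lower in TPM as deposited. For adult against P3 cells it was 1648 higher and 1773 lower with median-of-ratios scaling and 1714 higher and 1849 lower with quantile normalization, beside 1337 higher and 2193 lower in TPM as deposited. The P3 libraries lay wholly above those of E15 for 4 members and wholly below for 3, beside 25.3% and 37.2% of all genes. The adult libraries lay wholly above those of P3 for 5 members and wholly below for 2, beside 19.9% and 29.2% of all genes. They lay wholly above those of E15 for 4 members and wholly below for 3, beside 22.3% and 38.8% of all genes. The median log2 difference of the members was 0.01, 0.30 and 0.25 in the 3 comparisons in this order, and that of all genes tested was -0.15, -0.13 and -0.30. By the F test over the 3 stages, 4 members differed (Ptch1, Cdon, Gli1 and Sufu, limma, Benjamini-Hochberg adjusted p = 0.000205, 0.00244, 0.014 and 0.0464), beside 37.4% of all genes. All 10 members passed the filter of at least 1 TPM in at least 2 libraries. Gli1 passed it through the adult libraries alone, and Hhip through the adult libraries and P3 replicate 1, so both could enter only by being higher later. The 3 comparisons share libraries and are not independent.

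**Figure D3:**
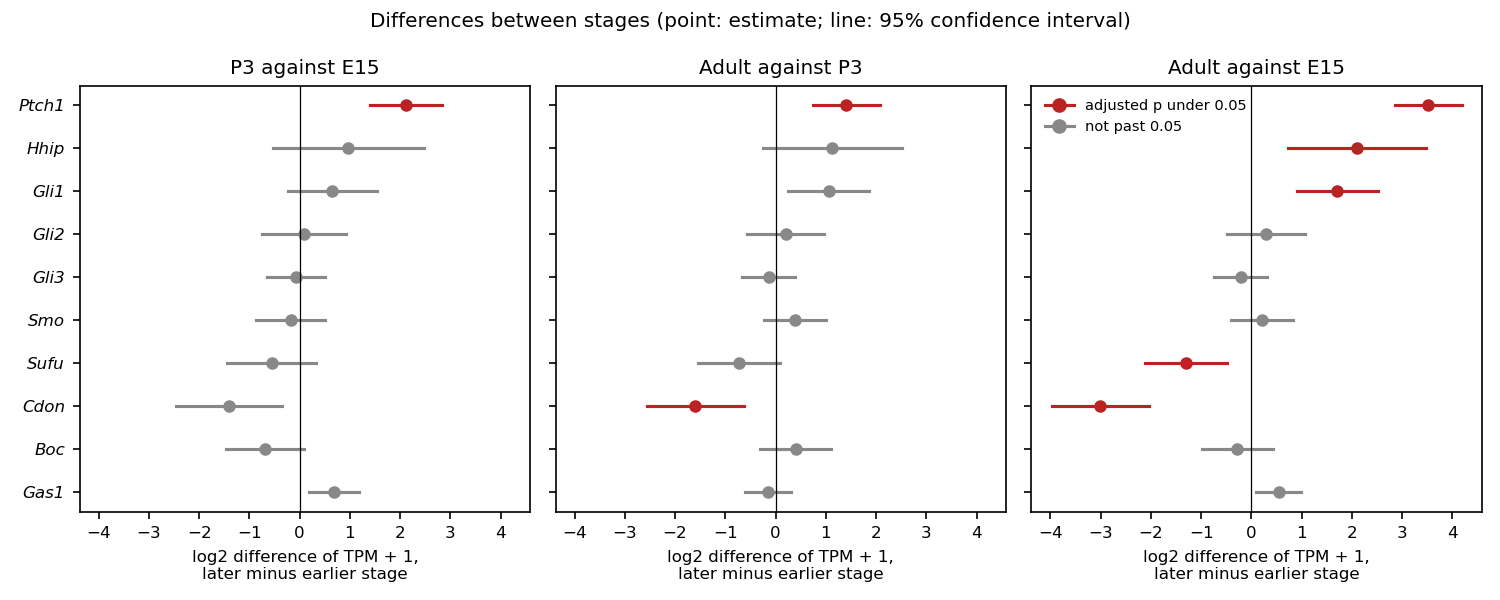
Log2 differences of TPM + 1 of the 10 Hedgehog genes, later minus earlier stage, with 95% confidence intervals from limma; red marks an adjusted p under 0.05. Ptch1 is to the right of 0 in all 3 comparisons (2.11, 1.40 and 3.52) and Cdon to the left (-1.41, -1.60 and -3.01), although the Cdon difference in P3 against E15 cells is not past the threshold.

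The rest of the pathway was read from 4 lists. They were tested in TPM as deposited only, without the alternatives run for the members. Of 14 genes for ligands and their release, 8 passed the filter. The ligand genes did not pass it: Shh was at 0.17 to 0.96 TPM in the 7 libraries, and Ihh and Dhh did not exceed 0.57 and 0.06 TPM. None of the 8 was called in P3 against E15 cells (limma, Benjamini-Hochberg), where the heparan sulphate polymerase gene Ext1 and the ligand acyltransferase gene Hhat had log2 differences of -0.20 and -0.28. Of all genes, 6.63% were called in that comparison. At an unadjusted p under 0.05, 1 of the 8 was lower and 0 were higher, beside 11.3% and 12.3% of all genes. In adult against P3 cells 1 fell and none rose, beside 13.8% and 8.39% of all genes. This was Gpc3, a glypican that competes for ligand, at 0.233 ± 0.316 TPM in the adult (SD, n = 3) and 2.13 ± 0.235 TPM at P3 (SD, n = 2), a log2 difference of -1.37 (limma, Benjamini-Hochberg adjusted p = 0.0348). Gpc3 (-1.41) and Scube1 (-0.94), which encodes a secreted protein of a family that helps to release ligand, were the 2 that fell in adult against E15 cells, where 24.7% of all genes fell. Scube1 passed the filter through the E15 libraries alone and could enter only by being higher there, and Gpc3 passed it through the E15 and P3 libraries, with no adult library at 1 TPM. The list median there was -0.51, and that of all genes was -0.30.

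Of 22 listed regulators of Smo and Gli at the cilium 21 were tested, and none was called in P3 against E15 cells (limma, Benjamini-Hochberg), and the most abundant, Gnas and Efcab7, had log2 differences of -0.15 and 0.45. Of all genes, 6.63% were called in that comparison. At an unadjusted p under 0.05, 1 of the 21 was lower and 0 were higher, beside 11.3% and 12.3% of all genes. The kinase gene Stk36, whose fly counterpart Fused acts in the pathway, fell in both later comparisons. Stk36 was at 18.3 and 25.2 TPM (E15), 6.49 and 11.4 TPM (P3) and 0.113, 2.66 and 0.758 TPM (Adult). It was the only member of the list called in adult against P3 cells (log2 -2.32, SE 0.53, limma, Benjamini-Hochberg adjusted p = 0.0162). That is 1 of 21, beside 22.2% of all genes called either way. In adult against E15 cells 1 gene rose and 3 fell of 21, beside 15.4% and 24.7% of all genes. Arrb1, a beta-arrestin, rose by 1.04, and Stk36 (-3.54), Adcy5 (-1.07), an adenylyl cyclase, and Fkbp8 (-0.93), an immunophilin that represses the pathway in the neural tube, fell. Adcy5 passed the filter through the E15 libraries alone and could enter only by being higher there.

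Of 19 genes for kinases and ubiquitin ligase parts that process Gli proteins, none was called in P3 against E15 cells, where Skp1a and Rbx1, both ubiquitin ligase subunits, had log2 differences of -0.22 and -0.25 (limma, Benjamini-Hochberg). Of all genes, 6.63% were called in that comparison. At an unadjusted p under 0.05, 2 of the 19 were lower and 0 were higher, beside 11.3% and 12.3% of all genes. In adult against P3 cells 4 of 19 fell and none rose, beside 13.8% and 8.39% of all genes. They were the protein kinase A regulatory subunit gene Prkar2b (log2 -1.66), Skp1a (-1.20), the casein kinase gene Csnk1e (-0.90) and Spop (-0.68), the adaptor for degradation of full-length Gli proteins. In adult against E15 cells 9 fell and none rose, 9 of 19 beside 24.7% of all genes. Csnk1e was at 18.1 ± 2.17 TPM in the adult (SD, n = 3) and 51.8 ± 0.345 TPM at E15 (SD, n = 2), a log2 difference of -1.48 (SE 0.24, limma, Benjamini-Hochberg adjusted p = 0.00204). Skp1a (-1.42), the glycogen synthase kinase gene Gsk3b (-1.40) and Csnk1d (-1.38) fell with it, and the list median was -0.65, beside -0.30 for all genes.

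Genes reported as Gli targets elsewhere did not move one way. The list was not divided into genes that Gli factors raise and genes that they lower. Of 24 listed, 16 were tested. Of these, 2 rose (Olig2, a transcription factor of ventral progenitors and oligodendrocyte precursors, log2 2.52, and the cyclin gene Ccnd1, 1.71) and 1 fell (Pax6, -1.01) in P3 against E15 cells, beside 5.56% and 1.08% of all genes. In adult against P3 cells 1 rose and 6 fell of 16, beside 8.39% and 13.8% of all genes. The largest falls were those of the cell cycle genes Foxm1 (-2.50), Ccnd1 (-2.33) and Ccnd2 (-1.69) and of Mycn (-1.81), which encodes a transcription factor. In adult against E15 cells 4 rose and 6 fell of 16, beside 15.4% and 24.7% of all genes, with Foxm1 (-3.02), Mycn (-2.41), Olig2 (2.14) and the Wnt antagonist gene Sfrp1 (-1.85) the largest (limma, Benjamini-Hochberg). Olig2 was below 1 TPM in both E15 libraries and so could enter only by being higher later. The list median in that comparison was -0.83, beside -0.30 for all genes. Mycn, a target in granule cell precursors, was at 33.9 and 35.2 TPM (E15), 19.1 and 26.3 TPM (P3) and 7.53, 4.52 and 5.33 TPM (Adult). It was lowest in the adult libraries, where Ptch1, Hhip and Gli1 were highest.

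Markers of cell types moved with several members. The summed level of 11 astrocyte markers was 987 and 797 TPM (E15), 6881 and 4377 TPM (P3) and 18250, 17720 and 16480 TPM (Adult). Ranked by this sum, the 7 libraries stood in the same order as when ranked by Ptch1. At P3, both Ptch1 and these markers were higher in replicate 1 than in replicate 3. The summed level of 13 neuron markers was 1415 and 1700 TPM (E15), 245 and 832 TPM (P3) and 385, 208 and 293 TPM (Adult). Cdon was likewise higher in P3 replicate 3 than in P3 replicate 1, and in E15 replicate 2 than in E15 replicate 1. Among the adult libraries, in contrast, Cdon was highest in replicate 2, where the neuron sum was lowest. The parts of these cells in the Ptch1 and Cdon results were not tested. Without P3 replicate 3, the log2 difference of Cdon was -1.97 in P3 against E15 cells (limma, Benjamini-Hochberg adjusted p = 0.0639). None of the 13 neuron or 11 astrocyte markers was at 0 in all libraries of a stage.

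**Figure D4:**
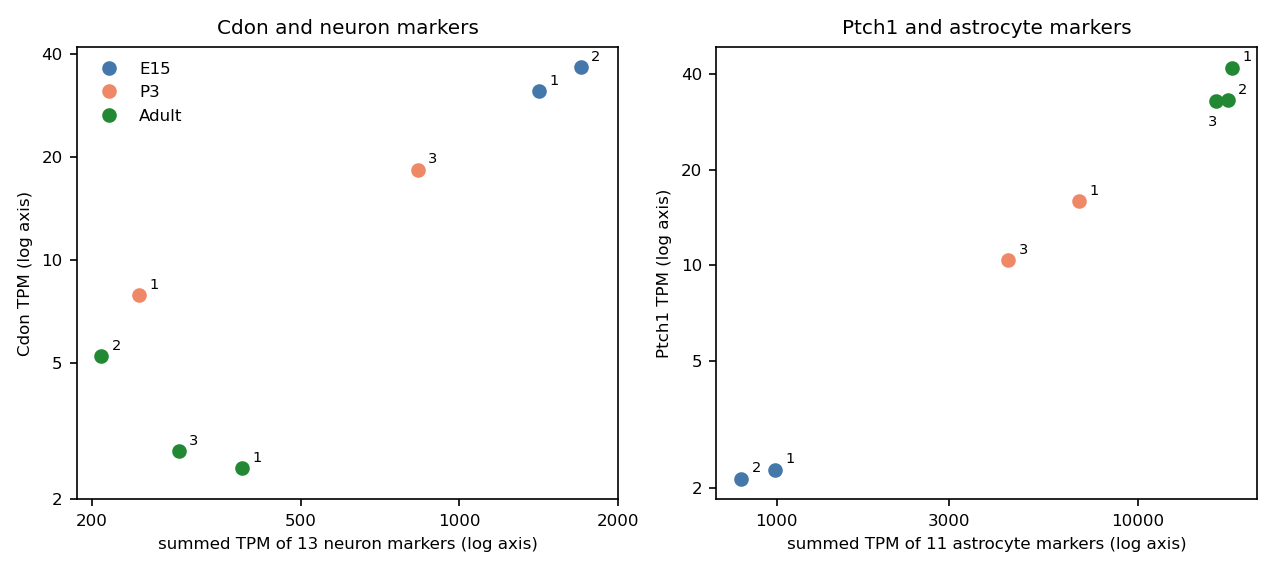
Cdon against the summed TPM of 13 neuron markers (left) and Ptch1 against the summed TPM of 11 astrocyte markers (right), with 1 point per library, numbered by replicate, on log axes. P3 replicate 3 has more of both Cdon (18.4 TPM) and neuron markers (832 TPM) than P3 replicate 1 (7.89 and 245 TPM), and Adult replicate 2 has the highest adult Cdon (5.24 TPM) with the lowest neuron sum (208 TPM).

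The summed level of 10 microglia markers was 3.51 and 2.87 TPM (E15), 85.0 and 59.0 TPM (P3) and 417, 327 and 417 TPM (Adult). By stage this is the order of Ptch1, Hhip and Gli1. Within P3 all of these genes were higher in replicate 1, where the microglia sum was also higher, and within E15 so was Ptch1. Within the adult Gli1 was highest in replicate 2, where the sum was lowest. Within E15 Hhip and Gli1, both below 1 TPM there, were higher in replicate 2, where the sum was lower. Of these markers, 2 were listed at 0 in both E15 libraries, 1 in both P3 libraries and none in all adult libraries. Ependymal markers (8 genes) were highest at P3, at 476 and 332 TPM, beside 23.2 to 31.7 TPM at E15 and 30.6 to 40.7 TPM in the adult, a course that no called member followed. Oligodendrocyte progenitor markers (6 genes) summed to 0.314 to 1.66 TPM at E15, 17.4 to 33.4 TPM at P3 and 11.5 to 12.7 TPM in the adult. Of the 2 that passed the filter, 1 was called higher in P3 against E15 cells and 1 in adult against E15 cells (limma, Benjamini-Hochberg). Of all genes, 5.56% and 15.4% were called higher in these comparisons. Among 7 endothelial markers Pecam1 was at 87.7 to 186 TPM, while Cldn5 did not exceed 0.36 TPM in any library. Mural and fibroblast markers (9 genes) summed to 24.1 and 24.6 TPM at E15, 97.5 to 119 TPM at P3 and 19.1 to 28.5 TPM in the adult, and choroid plexus markers (7 genes) to 16.3 to 25.7 TPM, 21.3 to 32.4 TPM and 5.62 to 12.4 TPM. Their part in the Hedgehog results was not tested.

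Genes whose course was most like that of a member were named by the mean absolute difference of log2(TPM + 1), each gene centred on its own mean, over the 7 libraries and 13877 candidate genes. For Ptch1 these were Timp3 (0.0571), which encodes a metalloproteinase inhibitor, Ltc4s (0.0633), leukotriene C4 synthase, and Gpm6a (0.0803), a membrane glycoprotein. Timp3 was at 10.1 and 8.54 TPM (E15), 56.4 and 35.0 TPM (P3) and 139, 108 and 118 TPM (Adult). For Cdon they were Dpysl5 (0.0743), a collapsin response mediator of developing neurons, Uchl1 (0.135), a neuronal ubiquitin hydrolase, and the histone demethylase gene Kdm4a (0.147). Dpysl5 was at 21.4 and 21.6 TPM (E15), 4.37 and 10.4 TPM (P3) and 1.11, 2.80 and 1.53 TPM (Adult), with the same high P3 replicate 3 and Adult replicate 2 as Cdon. Gli1 was nearest to Ficd (0.0719), Slc8b1 (0.0961) and Slc26a11 (0.103), and Sufu to Akr1b3 (0.0706), Drosha (0.0772) and Leo1 (0.0885). Gas1 was nearest to Commd6 (0.0277), and Gli3 to Tcf25 (0.0466). The nearest to Smo, Gli2 and Boc, which were not called, were Smarca2 (0.0665), Zfp560 (0.0765) and Epg5 (0.0457). Hhip had no near match, with Thsd7a the closest at 0.218, which was also highest in Adult replicate 1 (8.29 TPM, beside 2.16 and 1.76 TPM in Adult replicates 2 and 3). These are descriptions over 7 libraries that share their stages.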

How the data were processed

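The authors' TPM values, in 1 deposited table of 24978 genes by 7 libraries, were used without further scaling. Bowtie, bcl2fastq and build mm9 are named, without versions, per the submitters' processing notes. Which program computed TPM, on which annotation and with which strand setting, the sources used here do not give. TPM keeps no depth, so no count test was run and no detection floor was set. Stages and replicate numbers came from the labels.

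Values were transformed to log2(TPM + 1). A gene needed 1 TPM or more in 2 or more libraries, which 15931 reached. All 7 libraries were fitted together by stage with limma 3.58.1 under R 4.3.3, using a mean-variance trend (4 residual degrees of freedom, prior 4.27). The fit was tried on simulated data with normal noise, in which only genes of higher mean level were changed. Gli1, Gli2, Hhip and Sufu lie below that level, so the trial does not cover changes in genes like them. Benjamini-Hochberg adjustment ran over all genes tested, with a threshold of 0.05. No member row was identical to another row. The members and lists were chosen with earlier results of these data known. Named were all 10 members, up to 4 called genes per list and comparison with the largest change (where none was called, the 2 most abundant), and up to 3 genes nearest to a member, leaving out placeholder symbols and rows identical to another. Genes named beside these (Hopx, Arhgap9, ligand genes, and single markers) were chosen after their values were seen. Promoters came from RefSeq (GRCm38.p6), which matched 8 of the 10 members.

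Results were recomputed with pseudocounts of 0.1 and 5; without the filter, or with a mean of 5 TPM or more; after quantile normalization or median-of-ratios scaling; without the 10 most abundant genes; without the trend, or with robust estimation; with rows of a symbol summed; with a replicate block; in fits of the 2 compared stages; and without each library in turn. Leaving out Adult replicates 1 and 3 together, which carry oligodendrocyte transcripts, was chosen after seeing the data. Where a stage then had 1 library, it was assumed to vary like the others. The recomputation covered the members and the counts and medians over all genes, and not the other gene lists or the markers.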

Additional observations from a re-analysis of the deposited data

How the results depend on the processing

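Of 586 values of the 30 member comparisons under 20 alternatives, 549 kept their direction and their side of the threshold, 20 were no longer called, 9 became called and 8 changed sign. Every value that changed sign was uncalled. These were Gli3 with median-of-ratios scaling (0.10 in P3 against E15 cells and 0.09 in adult against E15 cells), Smo without Adult replicates 1 and 3 together (-0.03 in adult against E15 cells), and, with each library left out in turn, the P3 against E15 values of Gli2 (-0.16 to 0.33), Gli3 (-0.25 to 0.11) and Smo (-0.38 to 0.02). In P3 against E15 cells, the 1 member called higher became 2 with median-of-ratios scaling and 0 to 1 with each library left out. In adult against P3 cells, the 1 called higher became 2 with quantile normalization, 2 without the trend, 0 without Adult replicates 1 and 3 together and 0 to 2 with each library left out. The 1 called lower there became 0 with no filter, 0 in the fit of the 2 stages alone, 0 without Adult replicates 1 and 3 together and 0 to 1 with each library left out. In adult against E15 cells, the 3 called higher became 1 with a mean of at least 5 TPM, where Gli1, Hhip and Gli2 were not tested, and 1 to 4 with each library left out. The 2 called lower became 1 with median-of-ratios scaling and 1 to 2 with each library left out. The 4 members that differed over the stages became 2 to 5 with each library left out. In adult against E15 cells, the 3 called higher also became 4 with median-of-ratios scaling, quantile normalization or the 10 most abundant genes left out. They became 2 with a pseudocount of 5. The 4 that differed over the stages also became 5 with quantile normalization and 3 with a mean of at least 5 TPM. Apart from the genes no longer tested, the cause was not tested.

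Over all genes, the calls in P3 against E15 cells were 885 higher and 172 lower. They were 256 to 822 and 6 to 353 with each library left out, and the lower ones 98 with a pseudocount of 0.1, 110 with median-of-ratios scaling and 259 in the fit of the 2 stages. In adult against P3 cells, 1337 higher and 2193 lower became 480 to 1330 and 664 to 2121 with each library left out, and 708 were higher without Adult replicates 1 and 3 together. In adult against E15 cells, 3930 lower became 1945 to 3796 with each library left out.

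Deviations of libraries with the same replicate number correlated at -0.0232 to 0.0207 across genes, so no shared deviation by number was seen. This check is weak. With 2 libraries at E15 and at P3, the deviations within each of these stages mirror each other. Pairs of different number are therefore no independent reference. With the replicate block, the members called were 1 higher and 0 lower in P3 against E15 cells, 1 and 1 in adult against P3 cells, and 3 and 2 in adult against E15 cells, as without it, and over all genes 556 were higher and 60 lower in P3 against E15 cells. Depth is unknown, so genes below about 1 TPM, such as Gli1 and Hhip at E15, carry an unstated counting error.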
